A study of Homo sapiens and Mus musculus with 36 samples.

Results

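FDFT1, SQLE and LSS are the 3 genes of the squalene branch, the stretch of cholesterol synthesis from farnesyl diphosphate to lanosterol. They were taken by gene symbol from 13 comparison tables, with mouse letter case in the mouse tables. All 3 had a row in every table, which gave 39 rows out of tables that hold 26867 human and 16699 mouse gene symbols between them. The series held 36 RNA sequencing libraries, 2 in each of 18 groups. HepG2 and Huh7 are human liver cancer cell lines, and WEHI-231 is a mouse B-lymphoma line.

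HepG2 cells received MS7126, C24, MS7126N1, MS7126N2 or DMSO at 5 uM for 48 h. Huh7 cells received MS7126 or DMSO at 5 uM for 24 h by their own label, while another label gives 48 h. WEHI-231 cells received MS8815, EPZ-6438, MS8815N or DMSO at 1 uM for 16 h. MS7126 and MS8815 are PROTACs, molecules built to have a protein degraded, here EZH2, the histone methyltransferase of the Polycomb complex PRC2. C24 and EPZ-6438 are the matched inhibitors of the EZH2 enzyme, and MS7126N1, MS7126N2 and MS8815N are analogs described as non-PROTAC. The remaining groups carried pLKO.1-puro lentivirus under puromycin selection, with a hairpin labelled shEZH2 (Huh7, HepG2) or hairpin #664, #665 or #667 against SREBP2 (HepG2). Their controls are called empty vector in one label and scramble in another. The 4 HepG2 hairpin groups share a pair of control libraries, as do the 4 HepG2 compounds and the 3 WEHI-231 compounds. Whether both libraries of a group stem from different cultures is not stated in the labels, and p-values then measure only the spread between libraries, which may be technical.

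Farnesyl diphosphate is the last compound that cholesterol shares with the other products of the mevalonate pathway, such as prenylated proteins, dolichol and ubiquinone. FDFT1, squalene synthase, joins farnesyl diphosphate molecules head to head into squalene and so commits them to sterols. SQLE, squalene epoxidase, adds oxygen to squalene and is a rate-limiting step of the pathway whose protein is degraded when cholesterol is high. LSS, lanosterol synthase, then folds the epoxide into lanosterol, from which cholesterol is made. When cells lack sterols, the transcription factor SREBP2, the product of SREBF2, switches on the genes of this pathway, and the liver is a main site of cholesterol synthesis.

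Values per library were analysed here for Huh7 shEZH2, whose 4 libraries held between 10106193 and 11954322 estimated counts. For the other 12 comparisons the authors' deposited tables give a mean normalized count, a log2 fold change over the control, its standard error (SE) and an adjusted p for each gene. Summed over genes, mean normalized counts came to between 11109680 and 40979203 in the 13 authors' deposited tables, and those of the 3 genes lay between 589 and 7964. A gene is called here at an adjusted p under 0.05 over all genes tested. In the human tables all 8 of 8 liver marker genes, among them ALB and APOA1, had a mean of at least 100, and none of 7 B-cell markers did. In the WEHI-231 tables all 7 of 7 B-cell markers did, and of the liver markers 1, Afp, had a row, with a mean of at most 5.14.

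In the GENCODE annotation of GRCh38, LSS lies on the minus strand of chromosome 21 from 46188141 to 46228824. Of the 3 genes, 1, LSS, was matched in the RefSeq promoter table of GRCh38.p14. The 200 bases shown are those just ahead of the annotated gene, chr21:46228825-46229024 on the minus strand, and are the window in which promoter motifs were searched. Capitals mark the match to CCAAT, which is on the other strand and therefore reads as its reverse complement.
LSS promoter: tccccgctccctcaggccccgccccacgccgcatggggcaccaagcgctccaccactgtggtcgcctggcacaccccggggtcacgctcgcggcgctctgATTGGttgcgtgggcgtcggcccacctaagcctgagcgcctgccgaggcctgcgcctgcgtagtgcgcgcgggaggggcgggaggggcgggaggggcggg
The CCAAT match begins 150 bases ahead of the RefSeq start. GGGCGG, the core letters of a GC box, matched 4 times on either strand, at 232, 75, 66 and 57 bases ahead of that start. CACGTG (the E box) and TCACNCCAC (written for a sterol regulatory element) had no match on either strand of these 200 bases, and no searched motif overlapped another. Across the same window of 27305 genes, 32.2% held CCAAT, 38.9% GGGCGG, 5.56% CACGTG and 0.879% TCACNCCAC. CCAAT was present in 5 of 6 matched genes of the mevalonate steps and in 6 of 9 matched genes after lanosterol. It was present in 2 of 7 matched genes of other enzymes that use farnesyl diphosphate, in 2 of 7 of the SREBP factors and regulators and in 0 of 2 of the genes tied to the SQLE protein. GGGCGG was present in 5 of 6 matched genes of the mevalonate steps and in 7 of 9 after lanosterol. For the other groups, in the same sequence, GGGCGG was present in 4 of 7, 4 of 7 and 2 of 2. A match describes letters and does not show that a factor binds there.

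All 3 genes were called lower in 8 of the 13 comparisons, called higher in 1, and none of them was called in the other 4. The 8 were MS7126 in HepG2, MS7126 in Huh7, MS8815 in WEHI-231, shEZH2 in Huh7, the HepG2 libraries labelled shEZH2, and the HepG2 hairpins #664, #665 and #667. The comparison in which they rose was C24 in HepG2. MS7126N1, MS7126N2, EPZ-6438 and MS8815N gave no call. The 3 genes were never split between calls in opposite directions. The comparisons are not independent, since many share control libraries. RNA levels in bulk cultures cannot tell fewer cells of a kind from less RNA per cell.

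Huh7 shEZH2 cells had less RNA of all 3 genes than cells with the control hairpin, to between 52.5% and 58.8% of the control level. The targeted gene EZH2 measured 13.3 and 14.0 CPM, counts scaled to library size, (TMM-scaled) in the shEZH2 libraries, against 82.6 and 89.7 CPM in the control libraries. FDFT1 measured 173.4 and 172.9 CPM in shEZH2 libraries, against 294.1 and 295.1 CPM in control libraries. The estimated counts behind them were 1967 and 2079 in shEZH2 libraries, against 3299 and 2956 in control libraries. SQLE measured 90.6 and 85.8 CPM in shEZH2 libraries, against 170.0 and 166.1 CPM in control libraries, with 1027 and 1032 estimated counts in shEZH2 libraries and 1907 and 1664 in control libraries. LSS measured 114.1 and 115.3 CPM in shEZH2 libraries, against 214.7 and 216.6 CPM in control libraries. In each of the 3 genes both shEZH2 libraries lay below both control libraries, and the groups did not overlap.

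FDFT1 averaged 173 ± 0.351 CPM in shEZH2 cells and 295 ± 0.725 CPM in control cells (SD, n = 2 each), with a log2 fold change at -0.77 (SE 0.03, adjusted p = 2.25e-11, edgeR quasi-likelihood test with Benjamini-Hochberg adjustment). For SQLE the means were 88.2 ± 3.33 CPM in shEZH2 cells and 168 ± 2.74 CPM in control cells (SD, n = 2 each), with a log2 fold change at -0.93 (SE 0.04, adjusted p = 7.45e-11, edgeR). LSS averaged 115 ± 0.847 CPM in shEZH2 cells and 216 ± 1.34 CPM in control cells (SD, n = 2 each), with a log2 fold change at -0.91 (SE 0.04, adjusted p = 1.48e-11, edgeR). These 3 of 3 calls stand beside 19.3% of 14581 genes that the same edgeR fit called lower. By log2 fold change, 2.43% of the tested genes fell further than SQLE, 2.56% further than LSS and 3.79% further than FDFT1. By the edgeR fit, FDFT1 fell less than SQLE and LSS. The log2 fold change of FDFT1 minus that of SQLE was 0.17 (95% interval 0.06 to 0.27). FDFT1 minus LSS was 0.14 (0.05 to 0.24). These intervals use the SEs of edgeR, and intervals from the SEs of the authors' deposited table were not computed. SREBF2 was itself lower in this comparison, at 168.3 and 157.2 CPM in shEZH2 libraries against 231.5 and 230.5 CPM in control libraries, a log2 fold change of -0.51 (edgeR).

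**Figure D1:**
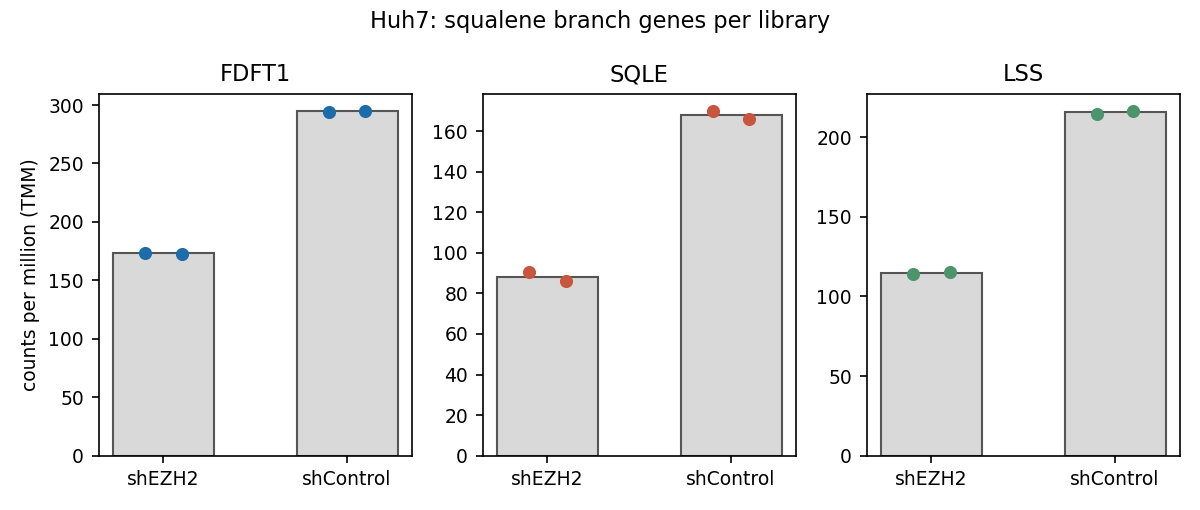
CPM (y axis, TMM-scaled, starting at 0) of FDFT1, SQLE and LSS in the Huh7 shEZH2 and shControl libraries (x axis); points are the 2 libraries of a group and bars their mean. The shEZH2 points lie at 172.9 to 173.4 for FDFT1, 85.8 to 90.6 for SQLE and 114.1 to 115.3 for LSS, all below the control points.

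MS7126 lowered all 3 genes in HepG2 cells, to 33.0% of the DMSO level for FDFT1, 27.3% for SQLE and 31.9% for LSS in the authors' deposited table. For these tables a level in each group was rebuilt from the mean and the fold change, on the normalized count scale of that table, and no value per library was analysed. By the authors' deposited table, FDFT1 stood at 1015 normalized counts in MS7126 cells and 3078 in DMSO cells (log2 fold change -1.60, SE 0.17, adjusted p = 2.80e-18). SQLE stood at 462 in MS7126 cells and 1692 in DMSO cells in the authors' deposited table (log2 fold change -1.87, SE 0.16, adjusted p = 3.50e-28). LSS stood at 285 in MS7126 cells and 893 in DMSO cells in that authors' deposited table (log2 fold change -1.65, SE 0.34, adjusted p = 4.23e-05). All 3 were called, where 8.06% of the genes tested were called lower. The SE of LSS was 1.57 times the running median of genes with a like mean, and its 95% interval ran from -2.32 to -0.97. The differences between the 3 genes had intervals that included 0, the widest from -0.71 to 0.80 (FDFT1 minus LSS), which do not show that they fell alike. EZH2 RNA was not called (log2 fold change -0.29, authors' deposited table), and SREBF2 was lower by a log2 fold change of -1.01.

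In Huh7 cells MS7126 also lowered the 3 genes. The authors' deposited table placed FDFT1 at 3378 normalized counts in MS7126 cells and 9608 in DMSO cells (log2 fold change -1.51, SE 0.10, adjusted p = 2.07e-49). SQLE had 2023 in MS7126 cells and 4243 in DMSO cells in the authors' deposited table (-1.07, SE 0.12, adjusted p = 3.80e-17). LSS had 2427 in MS7126 cells and 5724 in DMSO cells in the authors' deposited table (-1.24, SE 0.17, adjusted p = 2.14e-11). All 3 were called, beside 16.3% of genes tested that were called lower there. FDFT1 minus SQLE was -0.44 on the log2 scale (interval -0.75 to -0.13). SREBF2 fell by 0.39 on the log2 scale and EZH2 by 0.46 in the same authors' deposited table.

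Set side by side, MS7126 in HepG2 minus MS7126 in Huh7 differed for SQLE and not detectably for FDFT1 or LSS. The SQLE difference was -0.80 on the log2 scale (95% interval -1.20 to -0.41, adjusted p = 0.00324), 1 of 3 genes called lower where 2.65% of 16334 genes were. FDFT1 differed by -0.09 (interval -0.48 to 0.30) and LSS by -0.41 (interval -1.17 to 0.35), neither called. The difference was not particular to SQLE, since SREBF2 was called lower too, at -0.62 (interval -1.02 to -0.22, adjusted p = 0.0455). FDPS (-0.27) and CYP51A1 (-0.43) were not called. The lines were treated for different times by their own labels, so that line and time cannot be told apart here. Within Huh7, MS7126 minus shEZH2 gave -0.74 for FDFT1 (interval -0.96 to -0.52, adjusted p = 6.49e-10), 1 of 3 called, beside 15.5% of genes called lower. SQLE differed by -0.14 (interval -0.41 to 0.13) and LSS by -0.33 (interval -0.68 to 0.03), neither called. These differences used the authors' deposited tables, a normal test of the difference over the root of the summed variances, and Benjamini-Hochberg adjustment over all genes.

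C24 raised the 3 genes in HepG2 cells. FDFT1 stood at 4938 normalized counts in C24 cells and 3172 in DMSO cells in the authors' deposited table (log2 fold change 0.64, SE 0.10, adjusted p = 5.17e-08). SQLE stood at 2260 in C24 cells and 1662 in DMSO cells (0.44, SE 0.12, adjusted p = 0.00581, authors' deposited table). LSS stood at 1444 in C24 cells and 948 in DMSO cells (0.61, SE 0.16, adjusted p = 0.00421, authors' deposited table). All 3 were called higher, against 3.01% of the genes tested. SREBF2 was called higher too, by 0.53 on the log2 scale.

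Neither non-PROTAC analog gave a call for the 3 genes. With MS7126N1 the log2 fold changes were -0.09 for FDFT1 (interval -0.41 to 0.22), 0.27 for SQLE (-0.03 to 0.58) and -0.35 for LSS (-0.73 to 0.02) in the authors' deposited table, where 0.159% of genes were called in either direction. With MS7126N2 they were -0.41 for FDFT1 (-0.78 to -0.03), -0.23 for SQLE (-0.54 to 0.07) and -0.73 for LSS (-1.18 to -0.28, adjusted p = 0.145) in the authors' deposited table, where 0.703% of genes were called. The 3 values with MS7126N2 were all below 0, and the unadjusted intervals of FDFT1 and LSS lay below 0 without passing the adjustment.

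The 4 HepG2 compounds were compared in 6 pairs and the 3 WEHI-231 compounds in 3, each at 1 dose and time, out of 14 pairs of comparisons in all. P-values were adjusted over all genes within each pair. MS7126 minus C24 was -2.24 for FDFT1 (interval -2.63 to -1.85), -2.32 for SQLE (-2.71 to -1.92) and -2.26 for LSS (-3.00 to -1.51), 3 of 3 called lower beside 2.84% of genes. MS7126 minus MS7126N1 was -1.51 for FDFT1 (-1.97 to -1.04), -2.15 for SQLE (-2.59 to -1.70) and -1.29 for LSS (-2.07 to -0.52, adjusted p = 0.0348), again 3 of 3 beside 1.93% of genes. MS7126 thus differed from its inhibitor and from MS7126N1 in every gene of the branch.

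Against MS7126N2 the call held for 2 of 3 genes, beside 0.909% of all genes. MS7126 minus MS7126N2 was -1.19 for FDFT1 (interval -1.70 to -0.69, adjusted p = 0.000802) and -1.64 for SQLE (-2.08 to -1.20, adjusted p = 6.40e-10). For LSS it was -0.92 (interval -1.73 to -0.11, adjusted p = 0.567), which did not pass; with the covariance of the shared DMSO libraries taken off, the adjusted p was 0.0389.

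C24 minus MS7126N1 gave no call, where 0.111% of genes were called: 0.73 for FDFT1 (interval 0.36 to 1.10, adjusted p = 0.0705), 0.17 for SQLE (-0.21 to 0.55) and 0.96 for LSS (0.47 to 1.45, adjusted p = 0.0683). With the shared covariance taken off, FDFT1 (adjusted p = 3.06e-05) and LSS (adjusted p = 2.85e-05) passed. C24 minus MS7126N2 was 1.05 for FDFT1 (interval 0.62 to 1.47) and 1.33 for LSS (0.79 to 1.88), 2 of 3 called higher beside 0.233% of genes. SQLE at 0.68 (interval 0.29 to 1.06, adjusted p = 0.132) passed only with the covariance taken off (adjusted p = 0.000251). The analogs differed from each other by 0.31 for FDFT1 (interval -0.18 to 0.81), 0.51 for SQLE (0.07 to 0.94) and 0.37 for LSS (-0.21 to 0.96), MS7126N1 minus MS7126N2, with no call beside 0.0776% of genes. Intervals this wide do not show that the analogs act alike.

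**Figure D2:**
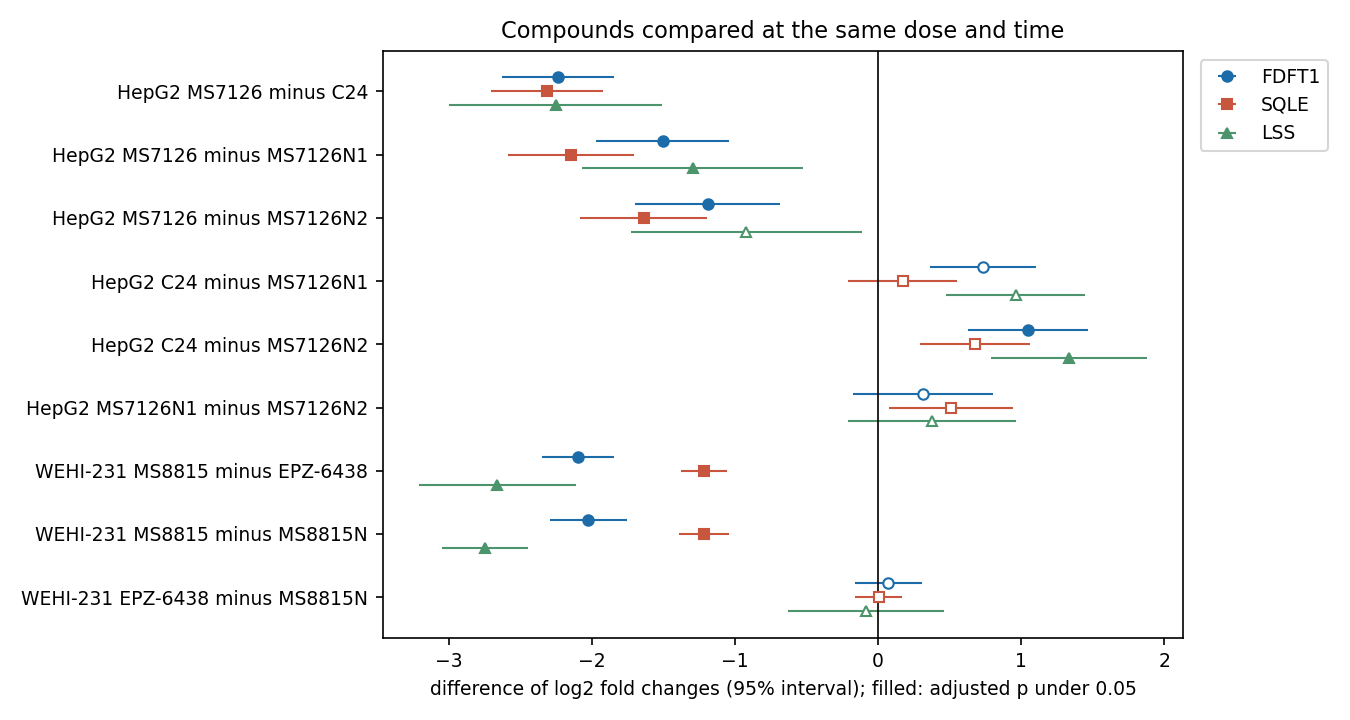
Difference of log2 fold changes between compounds given at the same dose and time (x axis, 95% intervals) for FDFT1, SQLE and LSS in 9 pairs (y axis); filled symbols have an adjusted p under 0.05. The PROTACs MS7126 and MS8815 lie left of 0 against every other compound, with LSS against MS7126N2 at -0.92 as the unfilled exception.

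In the mouse line all 3 genes were lower with MS8815 and stood among the lowest of all genes tested. Lss stood at 435 normalized counts in MS8815 cells and 2527 in DMSO cells, 17.2% of the DMSO level, in the authors' deposited table (log2 fold change -2.54, SE 0.11, adjusted p = 2.52e-115). Fdft1 stood at 638 in MS8815 cells and 2562 in DMSO cells (-2.00, SE 0.10, adjusted p = 8.84e-83, authors' deposited table). Sqle stood at 3140 in MS8815 cells and 7064 in DMSO cells (-1.17, SE 0.06, adjusted p = 1.05e-73, authors' deposited table). All 3 were called, beside 11.8% of 10671 genes tested. Of the genes tested, 3 had a lower log2 fold change than Lss, 4 a lower one than Fdft1 and 40 a lower one than Sqle. In the human tables the fewest were 143 for LSS, 97 for FDFT1 and 124 for SQLE. The number and choice of genes tested differ between tables, so these counts are not shares and cannot be compared directly. The branch was uneven here: Lss minus Sqle was -1.37 (interval -1.62 to -1.12) and Fdft1 minus Sqle was -0.83 (-1.07 to -0.60). Ezh2 RNA was lower by a log2 fold change of -0.24 and Srebf2 by -0.55 in the same authors' deposited table.

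EPZ-6438 gave 0.09 for Fdft1 (interval -0.06 to 0.25), 0.05 for Sqle (-0.05 to 0.15) and 0.12 for Lss (-0.38 to 0.63) in the authors' deposited table, none called beside 0.243% of genes in either direction. The SE of Lss there was 3.14 times that of genes with a like mean. MS8815N gave 0.02 for Fdft1 (-0.16 to 0.20), 0.05 for Sqle (-0.08 to 0.17) and 0.21 (SE 0.11) for Lss in the authors' deposited table, none called beside 0.119% of genes. MS8815 minus EPZ-6438 was -2.10 for Fdft1 (interval -2.35 to -1.84), -1.22 for Sqle (-1.38 to -1.06) and -2.66 for Lss (-3.21 to -2.11), 3 of 3 called lower beside 2.22% of genes. MS8815 minus MS8815N was -2.03 for Fdft1 (-2.29 to -1.76), -1.22 for Sqle (-1.39 to -1.04) and -2.75 for Lss (-3.05 to -2.45), 3 of 3 called lower beside 1.47%. EPZ-6438 minus MS8815N lay near 0, at 0.07 for Fdft1 (interval -0.16 to 0.31), 0.00 for Sqle (-0.16 to 0.17) and -0.09 for Lss (-0.63 to 0.46), with no call beside 0.0255%.

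All 3 genes were lower with each SREBP2 hairpin in HepG2, and FDFT1 had the lowest log2 fold change of the 3 each time. FDFT1 stood at 2486 normalized counts in #664 cells and 13442 in control cells in the authors' deposited table. SQLE stood at 2441 in #664 cells and 7456 in control cells, and LSS at 871 in #664 cells and 3706 in control cells, in the authors' deposited table. The log2 fold changes were -2.44 (SE 0.04) for FDFT1, -1.61 (SE 0.05) for SQLE and -2.09 (SE 0.07) for LSS, 3 of 3 called beside 26.8% of genes called lower in that authors' deposited table. With #665 they were -2.00 (SE 0.13) for FDFT1, -1.35 (SE 0.10) for SQLE and -1.47 (SE 0.11) for LSS in the authors' deposited table, 3 of 3 beside 20.0%. With #667 they were -2.57 (SE 0.10) for FDFT1, -1.96 (SE 0.11) for SQLE and -2.13 (SE 0.12) for LSS in the authors' deposited table, 3 of 3 beside 19.3%. SREBF2, the targeted gene, had log2 fold changes of -1.58 with #664, -1.08 with #665 and -2.35 with #667 in the authors' deposited tables. The SE of SREBF2 with #667 was 0.42, which is 3.77 times that of genes with a like mean. FDFT1, SQLE and LSS were each least lowered with #665, and a link to the fall of SREBF2 was not tested. With #664, SREBF1 was lower than SREBF2, at -2.23, and was the lowest SREBP factor or regulator with a value. With #665 and #667 the lowest of these was SREBF2. All 3 hairpins share their control libraries, and differences between hairpins were not tested.

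In the HepG2 libraries labelled shEZH2, EZH2 RNA was called higher, against their label. EZH2 stood at 1597 normalized counts in the libraries labelled shEZH2 and 854 in control libraries (log2 fold change 0.90, SE 0.38, adjusted p = 0.0337, authors' deposited table), and that SE was 4.12 times that of genes with a like mean. Whether the label is wrong, or holds for only a part of these libraries, was not tested, since no value per library was analysed. Direction is therefore given for the libraries as labelled and is not read as that of EZH2 loss. In them FDFT1 had a log2 fold change of -1.53 (SE 0.05), SQLE -1.08 (SE 0.06) and LSS -1.28 (SE 0.08) in the authors' deposited table, 3 of 3 called beside 28.6% of genes. SREBF2 was not called there (0.43, SE 0.35). Without these libraries the 3 genes were all lower in 7 comparisons.

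HepG2 MS7126 was set against each SREBP2 hairpin, which differ from it in kind, time and control. MS7126 minus #664 was 0.83 for FDFT1 (interval 0.49 to 1.18, adjusted p = 2.67e-05), 1 of 3 genes called higher beside 16.5% of genes, with SQLE at -0.26 (-0.59 to 0.07) and LSS at 0.44 (-0.25 to 1.13). MS7126 minus #667 was 0.96 for FDFT1 (interval 0.57 to 1.36, adjusted p = 2.44e-05), 1 of 3 called higher beside 13.2%, with SQLE at 0.09 (-0.29 to 0.47) and LSS at 0.49 (-0.23 to 1.20). MS7126 minus #665 was -0.53 for SQLE (interval -0.90 to -0.15, adjusted p = 0.0271), 1 of 3 called lower beside 11.5%, with FDFT1 at 0.40 (-0.02 to 0.82) and LSS at -0.18 (-0.89 to 0.53). With each SE raised to at least that of genes with a like mean, the SQLE difference from #665 no longer passed (adjusted p = 0.0540).

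By their log2 fold changes alone, the 3 genes stood in 1 order in 5 of the 8 comparisons in which they fell, with FDFT1 lowest, then LSS, then SQLE. These were MS7126 in Huh7 and the 4 HepG2 hairpin groups, which share controls. In 2 of the 5, #664 and the libraries labelled shEZH2, the intervals of all 3 differences excluded 0. For the counts that follow, SEs were from edgeR for Huh7 shEZH2 and from the authors' deposited tables for all others. FDFT1 minus SQLE had an interval that excluded 0 in 7 of 13 comparisons, FDFT1 minus LSS in 6 and LSS minus SQLE in 4. The sign of FDFT1 minus SQLE was not constant among these 7: it was above 0 in Huh7 shEZH2 and below 0 in the other 6.

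Ordered by log2 fold change over the 10 human comparisons, FDFT1 ran from -2.57 with #667 to 0.64 with C24. Its intervals with #667 and #664 overlapped, those with #664 and #665 did not, and those of MS7126 in HepG2, the libraries labelled shEZH2 and MS7126 in Huh7 overlapped one another. SQLE ran from -1.96 with #667 to 0.44 with C24, and each neighbour from #667 down to Huh7 shEZH2 overlapped the next. LSS ran from -2.13 with #667 to 0.61 with C24, and its neighbours in that range overlapped in the same way. Levels are not set side by side between genes, since no value per length was used, or between tables with their own scale.

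With the PROTACs and the hairpins, most enzyme genes on either side of the branch were called lower, as its members were; with C24 fewer were called. With the PROTACs and C24, few genes of the other enzymes that use farnesyl diphosphate were. In HepG2 MS7126, 7 of 8 enzymes from ACAT2 to FDPS were called lower (median log2 fold change -1.72, against 0.01 over all genes tested). So were 9 of 10 enzymes after lanosterol (median -1.18), beside 8.06% of genes tested called lower, in the authors' deposited table. FDPS, which makes farnesyl diphosphate, had -1.55, and CYP51A1, which demethylates lanosterol, -1.14 in the authors' deposited table; the exceptions were PMVK (-0.33) and LBR (-0.29). Of 8 other genes that act on farnesyl diphosphate or its products, none was lower, which is near the 8.06% of all genes. Of these 8, 1, FNTA, the shared subunit of prenyltransferases, was higher (1.06), where 7.44% of genes tested were called higher. The median of the 8 was 0.21. WEHI-231 MS8815 gave 8 of 8 lower before the branch (median -1.24) in the authors' deposited table, beside 11.8% of genes called lower. After the branch 9 of 10 were lower (median -1.28, Ebp at -0.22 being the exception). Of 8 other users 0 were called in either direction (median -0.06), which for lower calls is near the share of all genes. C24 raised 5 of 8 genes before the branch (median 0.70) and 6 of 10 after it (median 0.43), with 1 of 8 other users higher, FNTB, at 0.66, in the authors' deposited table, beside 3.01% of genes tested. In that table PMVK and, among the other users, PDSS1 and PDSS2 had no adjusted p. At an adjusted p under 0.01, or adjusted over all p-values of that table, 5 of 8 genes before the branch were higher, 4 of 10 after it and 0 of 8 other users.

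In Huh7 MS7126, 8 of 8 and 10 of 10 were lower (medians -1.27 and -0.95), and of the other users 1 was lower, NUS1 (-0.73), and 2 were higher, FNTA (0.62) and COX10 (1.16), in the authors' deposited table, beside 16.3% of genes called lower and 17.5% called higher. In Huh7 shEZH2, edgeR called 7 of 8 and 10 of 10 lower (medians -0.72 and -0.69), and of the other users 3 lower and 2 higher (median -0.08), beside 19.3% of genes called lower and 19.5% called higher. In the authors' deposited table for the same libraries 1 of the other users was lower, FNTB (-0.56), and 0 were higher, where 11.8% of genes were called lower. In the HepG2 hairpins #664 and #665 and the libraries labelled shEZH2, 8 of 8 and 10 of 10 were lower, with #667 at 7 of 8 and 9 of 10, in the authors' deposited tables. Other users were also called lower there: 6 of 8 with #664 beside 26.8% of genes, 5 of 8 with #665 beside 20.0%, 2 of 8 with #667 beside 19.3%, and 6 of 8 in the libraries labelled shEZH2 beside 28.6%. Their medians lay between -0.40 and -0.14, and the count with #667 was near the share of all genes. At an adjusted p under 0.01, 3 of 8 were lower with #665 and 1 of 8 with #667. COX10 was called higher with #664 (0.40, beside 24.9% of genes) and in the libraries labelled shEZH2 (0.45, beside 28.4%), in the authors' deposited tables. MS7126N1, MS7126N2, EPZ-6438 and MS8815N gave no call in any of the 3 groups. Between the groups no test was made, and the lists share controls across comparisons.

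**Figure D3:**
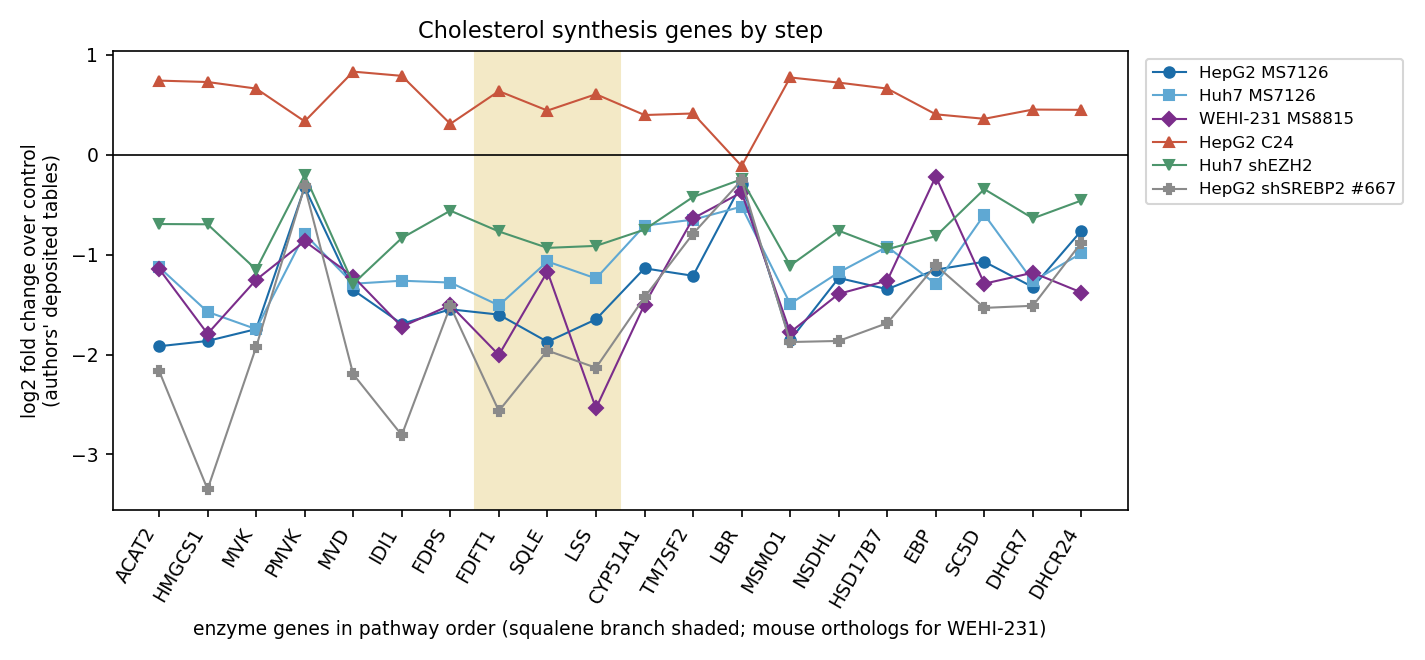
Log2 fold change over control from the authors' deposited tables (y axis) for enzyme genes in pathway order (x axis), with FDFT1, SQLE and LSS shaded, in 6 comparisons (coloured lines). In WEHI-231 MS8815 Lss is the lowest step at -2.54 and Fdft1 is next at -2.00, while LBR lies between -0.52 and -0.11 in the 6 comparisons.

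Of 8 SREBP factors and regulators, HepG2 MS7126 lowered 2, SREBF2 (-1.01) among them, in the authors' deposited table, beside 8.06% of genes called lower; at an adjusted p under 0.01 it was SREBF2 alone. In Huh7 MS7126 5 were lower, INSIG1 (-2.03), the sterol sensor that holds SREBPs in the endoplasmic reticulum, among them, and 1 was higher in the authors' deposited table, beside 16.3% of genes lower and 17.5% higher. WEHI-231 MS8815 lowered 4 of 8, with Insig1 at -1.55 in the authors' deposited table, beside 11.8% of genes called lower. In HepG2 MS7126, INSIG1 instead had the highest value of the 8, at 0.99, and was not called (authors' deposited table). C24 raised 2, SREBF2 (0.53) and SREBF1 (0.52), in the authors' deposited table, beside 3.01% of genes called higher, and INSIG1 had no adjusted p there. SREBF1 lost its call at an adjusted p under 0.01 and when adjusted over all p-values of that table. Of the 7 with a value in the HepG2 hairpin tables, #664 had 3 lower and 3 higher, beside 26.8% and 24.9% of genes. #665 had 3 lower beside 20.0%, and #667 had 3 lower beside 19.3% and 1 higher. The libraries labelled shEZH2 had 2 lower and 2 higher, near the 28.6% and 28.4% of all genes. In Huh7 shEZH2, edgeR called 6 of 8 lower and 1 higher, beside 19.3% and 19.5%. Of the 4 genes tied to the SQLE protein, POR passes electrons to it, SEC14L2 binds squalene, and MARCHF6 and UBE2J2 serve its degradation. In HepG2 MS7126 1 of these 4 was called, UBE2J2, higher by 0.72, beside 7.44% of genes called higher, and in WEHI-231 MS8815 none was, in the authors' deposited tables. In Huh7 MS7126 SEC14L2 alone was called, lower, at -4.57 (SE 0.78), in the authors' deposited table, beside 16.3% of genes called lower. In Huh7 shEZH2, edgeR called 1 of the 3 with a value lower, POR (-0.30), beside 19.3% of genes. By the authors' deposited values, #664 lowered 2 of 4 beside 26.8% of genes, #665 1 beside 20.0% and #667 1 beside 19.3%. In the libraries labelled shEZH2 none was lower and 1 of 4 was higher, beside 28.4% of genes called higher.

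The genes with the most like pattern were found by the mean absolute difference of log2 fold changes over the 10 human comparisons, over 7771 genes whose mean was 100 or more in every human one of the authors' deposited tables. For FDFT1 they were IDI1 (0.163), FADS2 (0.249), LSS (0.263), ACAT2 (0.281) and MVK (0.283), where the median over all genes was 1.31. For SQLE they included MSMO1 (0.199), DHCR7 (0.206), MVD (0.227) and SCD (0.235), with a median of 1.04. For LSS they were MVK (0.246), MVD (0.249), FDFT1 (0.263), SQLE (0.266) and IDI1 (0.270), with a median of 1.20. FADS2 and SCD, a fatty acid desaturase each, were the names outside the sterol lists. The 10 comparisons share controls, and no p is given.

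By the same GENCODE annotation, FDFT1 lies on the plus strand of chromosome 8 from 11795573 to 11839309. SQLE lies on the same strand of that chromosome from 124998497 to 125022283. Of the protein-coding genes next to the members, those with a row in the 5 human compound tables gave 1 call of lower there, SPATC1L with MS7126 in Huh7 (-1.18, authors' deposited table). With MS7126 in Huh7, 16.3% of all genes were called lower. NEIL2, a DNA repair gene 8227 bases from FDFT1, was lower in the 4 HepG2 hairpin tables and in 0 of the 5 others that gave it an adjusted p. CTSB, the gene of cathepsin B, 3215 bases from FDFT1 on the other strand, was higher in 3 of 10 authors' deposited tables and lower in none. ZNF572, next to SQLE, was called in none of the 8 tables that gave it an adjusted p. WASHC5, 1977 bases from SQLE on the other strand, had a row in the 4 HepG2 hairpin tables and was lower in all 4. Its log2 fold changes lay between -1.26 and -0.51 in the authors' deposited tables. These 4 tables, in which NEIL2 was lower too, share a pair of control libraries. In them 26.8% (#664), 20.0% (#665), 19.3% (#667) and 28.6% (labelled shEZH2) of all genes were called lower. Next to LSS, SPATC1L was lower in 1 and higher in 4 of 10. MCM3AP was higher in 2 of 10, MS7126 in HepG2 (beside 7.44% of genes) and #665. The higher calls of CTSB and SPATC1L were all in HepG2 hairpin tables. There, 24.9% of genes with #664 and 28.4% in the libraries labelled shEZH2 were called higher. That share was not counted with #665 and #667. The antisense gene AP001468.1, which overlaps LSS, had a row in the 4 HepG2 hairpin tables with means of 16.2 to 18.7, and was called lower with #664 alone, in the authors' deposited tables. AP001469.1, a further antisense gene, also overlaps LSS, and AC069185.1, a long noncoding RNA gene on the other strand, overlaps FDFT1. Whether counting used strand is not given in the sources used here. If counting did not use strand, reads from stretches that LSS or FDFT1 shares with genes on the other strand cannot be told apart.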

How the data were processed

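Per the submitters' processing notes, the tools include STAR 2.4.2 and Salmon (its version is not given in the sources used here) and the builds GRCh38 and mm10. Kits were TruSeq v2 or NEBNext Ultra II, per the labels' protocols, with no mention of which library had which. The 13 deposited tables hold, per the file headers, a normalized signal averaged over both groups, the log2 fold change and its SE, a score equal to their ratio, and a p-value raw and adjusted, laid out as by DESeq2. In the Huh7 shEZH2 table the authors also give an estimated count for each library; these were rounded and tested by edgeR 4.0.16 (R 4.3.3; TMM, filterByExpr, quasi-likelihood, no block), without 20 rows that hold dates for symbols. The SE of that fit is the absolute log2 fold change divided by the square root of F. DESeq2 1.42.0 served as an alternative.

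Group levels were rebuilt from mean and fold change. Differences between comparisons ignore the covariance of shared controls. Chi-square per degree of freedom between the libraries of a group was 1.55 (shEZH2) and 1.63 (control). The edgeR fit gave a common coefficient of variation between libraries of 0.0187. All libraries were kept as separate, but values this small cannot tell different cultures from technical repeats. The genes named are the members, EZH2, SREBF2, FDPS, CYP51A1, up to 4 of each list by adjusted p, the 5 of most like pattern and the nearest protein-coding genes. List exceptions and the genes that overlap a member were added after values were seen. Some genes that the rule names are not reported here. The members and lists were chosen with earlier results of these data known. Both the edgeR fit and the test of differences were tried on simulated data.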

Additional observations from a re-analysis of the deposited data

Results flagged for a closer look

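SQLE responded differently to MS7126 in the 2 liver lines. The log2 fold change in HepG2 minus that in Huh7 was -0.80 (95% interval -1.20 to -0.41, adjusted p = 0.00324 over 16334 genes), from -1.87 in HepG2 and -1.07 in Huh7 in the authors' deposited tables. FDFT1 and LSS gave -0.09 and -0.41, neither called. Outside the branch, SREBF2 was called lower for the same pair (-0.62). Time differs between the lines by their own labels, and its part in the difference was not tested.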

How the results depend on the processing

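The direction and call of the 3 members in Huh7 shEZH2 held under DESeq2 size factors, no filter, DESeq2, the authors' deposited table and leaving out each library; FDFT1 then ran from -0.77 to -0.77, SQLE from -0.97 to -0.89 and LSS from -0.92 to -0.91. The count of genes lower was 2811 with edgeR, 1723 with DESeq2 and 1721 in the authors' deposited table; of genes higher 2838, 1711 and 1702. Without 1 library each, 2328 to 2477 genes were lower and 2277 to 2389 higher. Replicate numbers did not pair the samples (correlation of same-numbered deviations -0.0257 over 9870 genes); with the number as a block SQLE had -0.93 and 2703 genes were lower. With the covariance of shared controls taken off, LSS in MS7126 minus MS7126N2 (-0.92), FDFT1 (0.73) and LSS (0.96) in C24 minus MS7126N1 and SQLE (0.68) in C24 minus MS7126N2 passed. With SEs raised to the trend, SQLE in MS7126 minus #665 (-0.53) had an adjusted p of 0.0540. Of the 5 genes of most like pattern, a Pearson correlation kept 2 for FDFT1, 3 for SQLE and 3 for LSS, and leaving out the HepG2 libraries labelled shEZH2, chosen after seeing the data, kept 3 for SQLE and 3 for LSS. Counts over the lists that moved by over 1.5 times, at a stricter threshold or adjusted over all p-values, are given beside those counts, or here for 3 of them: with #664 the SREBP factors called higher, with #667 the genes tied to the SQLE protein called lower, and in the authors' deposited table for Huh7 shEZH2 the other users called lower, which came to 1, 0 and 0 at an adjusted p under 0.01. The cause of these moves was not tested, beyond the smaller variance that the covariance step itself gives. With 2 libraries a group, and levels per library in 1 table, a library that stands apart cannot be seen in the other 12.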
